A study of Mus musculus with 9 samples.

Results

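The nuclear genes for subunits of the respiratory chain and ATP synthase were followed in embryoid bodies (EBs) and embryonic stem cells (ESCs). They were taken as the genes whose symbol, in the annotation of the array, begins with Nduf and a letter a, b, c, s or v and a digit, is Sdha, Sdhb, Sdhc or Sdhd, or begins with Uqcr, with Cox and a digit from 4 to 8, or with Atp5. The rule gave 81 of the 18193 genes that had a probe set paired with a single symbol. These 81 genes had 164 probe sets of the 45037 tested, and each gene was represented by its probe set of highest mean. By complex, 33 genes belonged to complex I, 4 to complex II, 8 to complex III, 18 to complex IV (8 of them tissue isoforms) and 17 to complex V. The remaining gene, Cox7a2l, matches the rule by name, but its product is a factor of supercomplex assembly and not a subunit.

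The data were 9 Affymetrix mouse expression arrays, 5 of EBs (labelled EB1, EB3, EB5, EB7 and EB9) and 4 of ESCs (labelled ES2, ES6, ES8 and ES10). E14, an established mouse ESC line, is named in the paper for the ESCs, and the line that gave the EBs is not stated there. The labels give no treatment, transgene or genetic change for either group. EBs are aggregates in which ESCs differentiate into a mixture of cell types, and neither their age in culture nor their method of formation is given in the sources used here. The ESC samples were described as biological replicates and nothing says how the EB samples were obtained, so the p-values measure only the spread between these samples.

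Oxidative phosphorylation passes electrons from NADH (complex I) and succinate (complex II) through complex III to oxygen at complex IV, and the proton gradient that complexes I, III and IV build drives ATP synthesis by complex V. Most subunits are encoded in the nucleus and a few in mitochondrial DNA, which the symbol rule does not cover. Several complex IV subunits exist as a general isoform and a second one that is mainly made in heart and skeletal muscle, lung or testis.

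Before the results, the arrays themselves have to be described. Array medians lay between log2 4.01 and 4.09, and between 49.1% and 49.9% of probe sets on each array read under log2 4, called near the floor here. The arrays fell into sets by their label numbers within each group. Pearson's r across probe sets was 0.9983 to 0.9986 among EB1, EB3 and EB5 and 0.9984 for EB7 with EB9, against 0.9966 to 0.9975 across these sets. It was 0.9978 for ES2 with ES6 and 0.9976 for ES8 with ES10, against 0.9953 to 0.9958 across. Nothing in the labels says what the numbers mean, so arrays 1 to 6 and arrays 7 to 10 are also given apart below. EB and ESC arrays correlated at 0.9683 to 0.9769. By the calls described below, 15.7% of all genes were higher in EBs and 14.7% lower. Of 10 markers of pluripotent cells 9 fell in EBs, with a summed intensity of 3850 to 7370 in EBs against 38300 to 41400 in ESCs, and 7 of 12 heart muscle markers rose (13400 to 15900 in EBs against 348 to 607 in ESCs).

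The oxidative phosphorylation genes differed little between EBs and ESCs, and in both directions. By their representative probe sets all 81 differed by less than 1.5-fold, against 14752 of all 18193 genes (81.1%) and 1000 of the 1413 genes whose mean log2 value was 10 or more (70.8%). Over all 164 probe sets of the 81 genes, 1 gene, Uqcr10, had probe sets past that fold (−0.59 and −1.19). By limma, at an adjusted p under 0.05 over all probe sets, 19 of the 81 (23.5%) were higher in EBs and 10 (12.3%) were lower, with 52 not called. Among all genes 15.7% were called higher and 14.7% lower. Levels matter for this reading, because strongly detected genes are called more often. Of the 62 oxidative phosphorylation genes at a mean log2 value of 10 or more, 18 (29%) were higher and 7 (11.3%) lower, against 26.2% and 40.9% of all genes at that level. The median log2 difference, EB minus ESC, was 0.04 for the 81 genes, −0.04 for all genes and −0.09 for all genes at log2 10 or more. Every EB array read above every ESC array for 17 of the 81 genes, where 15.6% of all genes did so, and below for 12, where 19.4% did. At a mean log2 value of 10 or more, it read above for 16 of the 62 genes, against 367 of all 1413. It read below for 9 of the 62, against 577 of the 1413. As the samples are bulk RNA, fewer cells of a type and less RNA per cell cannot be told apart. Without EB3, 12 genes were called higher, and 12 to 23 across all 9 arrays left out in turn. The shares of all genes in these fits are not given. The number of arrays limits the precision.

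**Figure D1:**
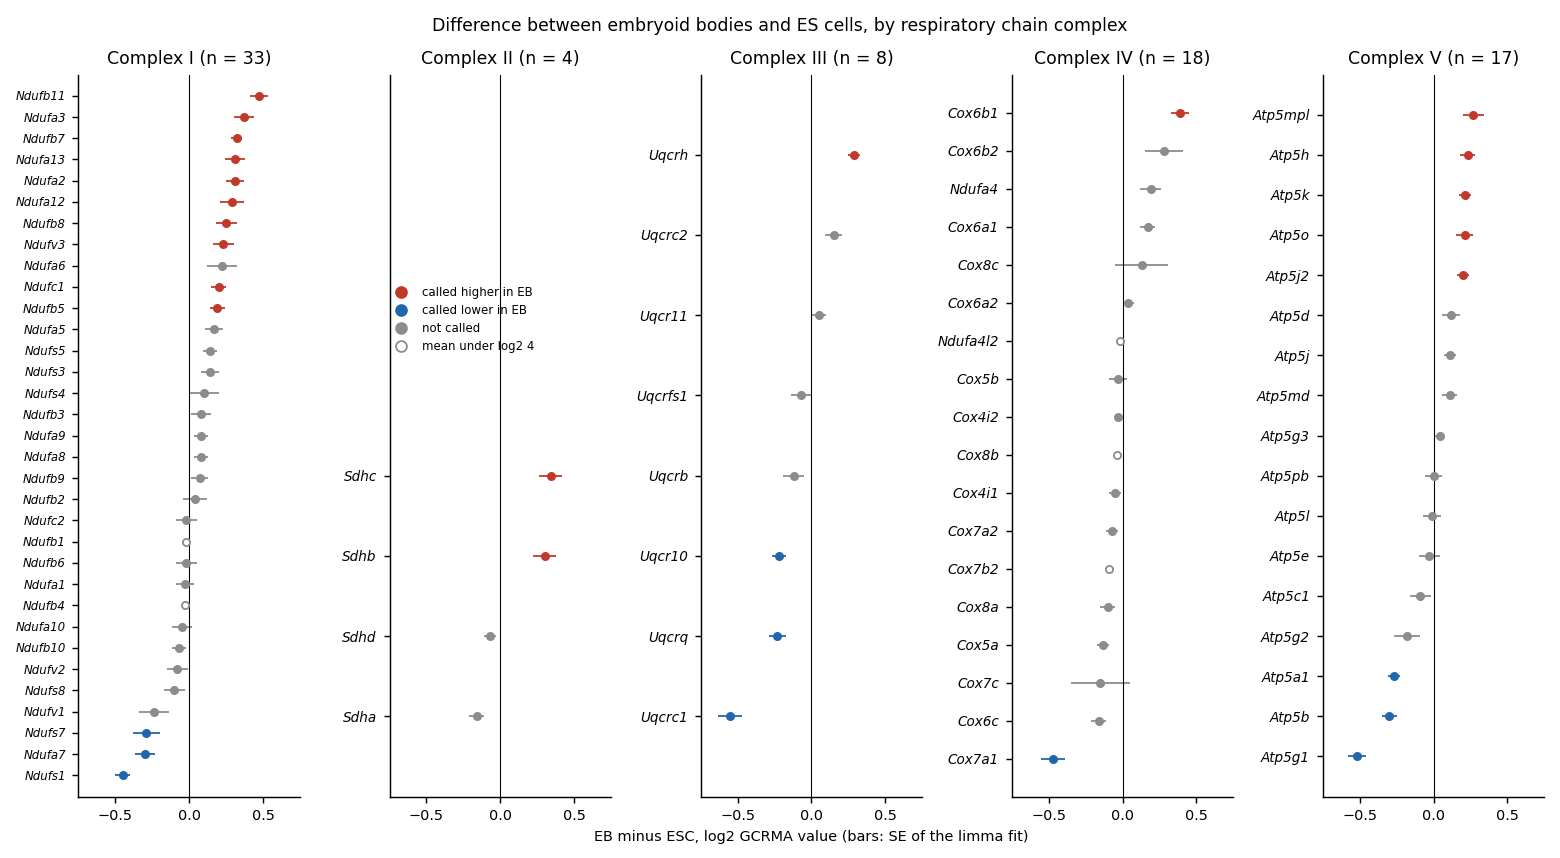
EB minus ESC difference in log2 GCRMA value for the 80 subunit genes (Cox7a2l is not drawn), with the SE of the limma fit as bars, by complex. Red marks genes called higher in EBs, blue those called lower and open circles genes near the floor. The differences lie between −0.55 and 0.47 in every panel.

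A gene from each of complexes I, III, IV and V is shown first with its values on each array, in the order EB1, EB3, EB5, EB7, EB9 and ES2, ES6, ES8, ES10, which is kept throughout. Uqcrc1, a core protein of complex III, had the deepest fall among representative probe sets. It read log2 10.04, 10.16, 9.91, 9.94 and 9.77 in EBs, against 10.60, 10.56, 10.35 and 10.53 in ESCs. All EB arrays lay below all ESC arrays, and the difference was −0.55 ± 0.08 (SE, adjusted p = 0.0011). Cox6b1, a complex IV subunit on the intermembrane side, read 12.82, 12.91, 12.88, 13.00 and 13.05 in EBs, against 12.63, 12.52, 12.59 and 12.44 in ESCs. The groups did not overlap, the difference was 0.39 ± 0.06 (adjusted p = 0.00081), and a second probe set of the gene also rose (0.35). Ndufa3, an accessory subunit of complex I, read 11.26, 11.41, 11.39, 11.43 and 11.54 in EBs, against 11.16, 10.92, 11.10 and 10.96 in ESCs. It was higher in every EB array, by 0.37 ± 0.07 (adjusted p = 0.0033). Atp5k, subunit e of ATP synthase in the membrane, read 11.47, 11.53, 11.41, 11.50 and 11.55 in EBs, against 11.24, 11.22, 11.33 and 11.35 in ESCs. This rise of 0.21 (adjusted p = 0.0075) was small but free of overlap, and all 3 probe sets of Atp5k were called higher.

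The start regions of these 4 genes are printed as examples of motifs that are known from promoters of oxidative phosphorylation genes, and the genes were picked because they hold one. The windows of Ndufb11, Atp5g1 and Atp5b, which also changed, hold none of the 4 motifs. Each window runs from 250 bases before to 50 bases after the RefSeq transcription start (GRCm38.p6), 5′ to 3′ on the strand of the gene. Capitals mark matches, on either strand, to NRF1 (GCGCA, any base, then GCGC), ETS factors such as GABPA (CCGGAAG), YY1 (AAGATGGC) and estrogen-related receptors (AAGGTCA). The windows lie at chr9:108936398-108936697, + strand (Uqcrc1), chr7:30626065-30626364, − strand (Cox6b1), chr7:3617123-3617422, + strand (Ndufa3), and chr5:108434350-108434649, − strand (Atp5k).
Uqcrc1: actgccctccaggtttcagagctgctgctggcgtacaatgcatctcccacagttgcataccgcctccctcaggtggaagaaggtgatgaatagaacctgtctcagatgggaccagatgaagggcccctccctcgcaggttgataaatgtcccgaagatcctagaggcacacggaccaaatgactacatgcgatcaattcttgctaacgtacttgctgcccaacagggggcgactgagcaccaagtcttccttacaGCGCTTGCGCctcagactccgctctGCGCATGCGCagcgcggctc
Cox6b1: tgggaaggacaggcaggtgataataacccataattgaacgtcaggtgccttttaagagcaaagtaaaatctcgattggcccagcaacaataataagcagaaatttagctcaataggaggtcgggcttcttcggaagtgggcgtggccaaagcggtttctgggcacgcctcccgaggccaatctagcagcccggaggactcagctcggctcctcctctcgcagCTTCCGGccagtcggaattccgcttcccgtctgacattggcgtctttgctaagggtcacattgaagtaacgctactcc
Ndufa3: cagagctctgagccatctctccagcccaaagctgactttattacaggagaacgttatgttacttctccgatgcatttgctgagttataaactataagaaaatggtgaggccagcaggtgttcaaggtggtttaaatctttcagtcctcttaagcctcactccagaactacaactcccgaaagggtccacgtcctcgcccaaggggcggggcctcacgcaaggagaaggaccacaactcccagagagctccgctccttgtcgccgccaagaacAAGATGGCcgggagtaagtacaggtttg
Atp5k: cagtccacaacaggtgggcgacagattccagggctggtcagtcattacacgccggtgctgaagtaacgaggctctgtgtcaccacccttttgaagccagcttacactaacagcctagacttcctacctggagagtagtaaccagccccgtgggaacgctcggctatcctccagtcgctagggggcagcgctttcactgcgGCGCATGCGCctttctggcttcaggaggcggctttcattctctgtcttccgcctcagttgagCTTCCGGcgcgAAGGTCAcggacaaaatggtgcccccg

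Uqcrc1 thus held a pair of NRF1 matches close to its start, Cox6b1 an ETS match, Ndufa3 a YY1 match and Atp5k one each of NRF1, ETS and estrogen-related receptor. All 81 genes matched RefSeq by gene ID, and 66 of them had a window (71 windows in all). The NRF1 letters stood in the windows of 15 of these 66 genes (22.7%) and of 5.19% of 27025 genes with a window. For ETS the share was 25.8% against 9.93%, for YY1 13.6% against 3.19% and for estrogen-related receptors 12.1% against 5.38%. GGGCGG, the core of an Sp1 site, was found in 42.4% against 38.2%, and the TATA box letters TATAAA in 12.1% against 15.7%. The ETS letters end in AAG, with which the YY1 and estrogen-related receptor motifs begin, so matches of these can overlap. The windows of these genes were also richer in G and C, with a median of 58.3% against 52.7%. An ETS match stood in 6 of the 16 genes with a window that were called higher, in 0 of 7 called lower and in 11 of 43 not called. For NRF1 these counts were 3, 1 and 11, for YY1 4, 1 and 4, and for estrogen-related receptors 1, 0 and 7. A match describes the letters only and does not show that a factor binds there.

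Of the 33 genes of complex I, the NADH dehydrogenase, 10 were higher in EBs (30.3%), 3 were lower (9.09%) and 20 were not called, with a median difference of 0.08. The shares over all genes were 15.7% and 14.7%, and over those at log2 10 or more 26.2% and 40.9%. Not all 33 genes reach that level (lowest mean 2.2). Ndufb11, an accessory subunit of the membrane arm encoded on the X chromosome, showed the highest rise among representative probe sets. It read 11.22, 11.31, 11.23, 11.37 and 11.41 in EBs, against 10.94, 10.82, 10.91 and 10.71 in ESCs. The difference was 0.47 ± 0.06 (adjusted p = 0.00039), and its other probe sets gave 0.57 and 0.58. Ndufb7, another accessory subunit of the membrane arm, read 11.02, 11.10, 11.07, 11.16 and 11.13 in EBs, against 10.79, 10.81, 10.79 and 10.73 in ESCs. Its arrays were tightly spaced within each group, and the difference was 0.32 ± 0.04 (adjusted p = 0.00027). Further accessory subunits that were called higher were Ndufa13 and Ndufa2 (0.31 each), Ndufa12 (0.29), Ndufb8 (0.25), Ndufv3 (0.23), Ndufc1 (0.20) and Ndufb5 (0.19). For Ndufa12, ES2 (11.15) lay above EB5 (11.12), so the groups overlapped, and its call was lost without EB3, EB7, ES6 or ES10. Ndufb8 lost its call when any of 5 arrays was left out (highest adjusted p = 0.067). Without EB3, only 5 accessory genes were called higher, namely Ndufb11, Ndufa3, Ndufb7, Ndufa13 and Ndufa2. Ndufv3, Ndufc1 and Ndufb5 thus lost their calls there too.

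Among the genes of complex I that fell, Ndufs1 encodes the large iron-sulphur subunit that carries electrons away from NADH. It read 9.89, 9.95, 9.89, 10.04 and 10 in EBs, against 10.46, 10.45, 10.44 and 10.29 in ESCs. The difference was −0.45 ± 0.05 (adjusted p = 0.00019) with no overlap. Ndufs7, an iron-sulphur subunit next to the quinone site, read 9.65, 9.76, 9.68, 9.75 and 9.48 in EBs, against 10.11, 10.08, 9.86 and 9.76 in ESCs. Its call (−0.29, adjusted p = 0.048) was lost in 8 of 9 fits with an array left out, and with arrays centred on their medians (adjusted p = 0.074). Ndufa7, an accessory subunit, read 11.89 to 11.99 in EBs with a median of 11.96, against 12.13 to 12.47 in ESCs. It fell by 0.30 (adjusted p = 0.011).

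Ndufs1 and Ndufs7 are core subunits, which are conserved from bacteria, whereas Ndufa7 is an accessory one. A split of complex I into core and accessory genes was therefore made after these values were seen, and it is given without a test. Of 6 core genes 0 were called higher and 2 lower (33.3%), with a median of −0.17. Ndufv1, the subunit that binds NADH, differed by −0.24 (adjusted p = 0.094), Ndufs8 by −0.10, Ndufv2 by −0.08 and Ndufs3 by 0.14. Ndufv1 was called lower with array number as a block (−0.26, adjusted p = 0.044). It gave −0.42 in arrays 1 to 6 (adjusted p = 0.0092) but −0.06 in arrays 7 to 10 (adjusted p = 0.54). Of 27 accessory genes 10 were called higher (37%) and 1 lower (3.7%), with a median of 0.10. Of all genes at log2 10 or more, a level that not all of these reach, 26.2% were called higher and 40.9% lower. The core and accessory counts moved with the arrays read. Core genes called lower were 5 in arrays 1 to 6, 0 in arrays 7 to 10, 3 with array number as a block, and 1 without any one array except ES10 (3). Accessory genes called higher were 2 in arrays 1 to 6 (with 2 lower) and 8 in arrays 7 to 10, 5 without EB3, 6 without EB7, ES8 or ES10, and 7 to 10 without any of the others. With quantile normalization, or without ES2, 1 core gene was called higher. Over all genes 12.6% were called higher and 14.3% lower in arrays 1 to 6, and 13.1% and 10.1% in arrays 7 to 10. Shares of all genes in the other fits are not given. Ndufb4 and Ndufb1 were near the floor on every array (2.15 to 2.24 and 3.5 to 3.56), so their probe sets say little about these subunits.

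Complex II, succinate dehydrogenase, had 2 of 4 genes called higher (50%) and 0 lower. Over all genes the shares were 15.7% and 14.7%, and over those at log2 10 or more 26.2% and 40.9%. Sdhc, at a mean of 9.8, lies under that level. Sdhc, a membrane anchor, read 9.76, 9.95, 9.98, 10.13 and 9.92 in EBs, against 9.59, 9.67, 9.70 and 9.48 in ESCs, a difference of 0.34 ± 0.08 (adjusted p = 0.012). Its second probe set gave 0.16 and was not called. Sdhb, the iron-sulphur subunit, read 10.65, 10.70, 10.66, 10.81 and 10.84 in EBs, against 10.56, 10.55, 10.24 and 10.38 in ESCs. Groups did not overlap for Sdhb (0.30, adjusted p = 0.02), although the call was lost without EB7 (adjusted p = 0.052) or ES10 (adjusted p = 0.057). Sdha, the flavoprotein that oxidizes succinate, had a difference of −0.16 that was not called (adjusted p = 0.066), with EBs at 10.03 to 10.16 below ESCs at 10.17 to 10.38. A second probe set of Sdha was called lower, with no overlap (−0.33, adjusted p = 0.0098). The other anchor, Sdhd, had −0.07.

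Complex III, the cytochrome c reductase, had 3 of 8 genes lower (37.5%) and 1 higher (12.5%), with a median of −0.10. Over all genes the shares were 14.7% lower and 15.7% higher, and over those at log2 10 or more 40.9% and 26.2%. The lowest mean of the 8 genes was 9.95. Beside Uqcrc1, the small subunits Uqcrq (−0.23, adjusted p = 0.016) and Uqcr10 (−0.22, adjusted p = 0.016) were called lower, both with all EB arrays below all ESC arrays. The other probe sets of Uqcr10, which averaged log2 6.90 and 5.04, were also called lower, by −0.59 (adjusted p = 0.0037) and −1.19 (adjusted p = 0.0045), and the mean over its 3 probe sets differed by −0.67. Its representative probe set was not called after quantile normalization (−0.16, adjusted p = 0.14). Uqcrh, the hinge protein at the cytochrome c docking side, read 11.76, 11.85, 11.82, 11.84 and 11.91 in EBs, against 11.46, 11.55, 11.62 and 11.57 in ESCs. It was the single gene of the complex to rise, by 0.29 ± 0.04 (adjusted p = 0.00098). Neither the other core protein, Uqcrc2 (0.15), nor the Rieske iron-sulphur protein, Uqcrfs1 (−0.07), passed the test. Cyc1, the cytochrome c1 subunit that the symbol rule leaves out, fell by 0.53 (adjusted p = 8.7e-05), with EBs at 11.40 to 11.57 and ESCs at 11.90 to 12.13.

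Complex V, the ATP synthase, had 5 of 17 genes higher (29.4%) and 3 lower (17.6%), with a median of 0.04. Of all genes at log2 10 or more, as all 17 were, 26.2% were higher and 40.9% lower. Lower were Atp5g1 and the genes of the subunits that form the catalytic sites. Atp5b, the beta subunit, read 13.00, 13.06, 13.02, 13.14 and 13.12 in EBs, against 13.41, 13.45, 13.32 and 13.26 in ESCs. It fell by 0.30 (SE 0.05, adjusted p = 0.0015). Atp5a1, the alpha subunit, read 12.41, 12.48, 12.43, 12.49 and 12.54 in EBs, against 12.73, 12.83, 12.69 and 12.73 in ESCs. The call for Atp5a1 (−0.27, adjusted p = 0.00076) did not extend to its other probe sets, which gave 0.06 and −0.15 and were not called, nor to their mean (−0.12, adjusted p = 0.084). Atp5g1 is 1 of 3 genes for the c subunit, whose mature protein is the same and whose ring turns in the membrane. It read 10.26, 10.40, 10.24, 10.38 and 10.32 in EBs, against 10.76, 10.73, 10.97 and 10.89 in ESCs, a difference of −0.52 ± 0.06 (adjusted p = 0.00023). The other c-subunit genes, Atp5g2 (−0.18) and Atp5g3 (0.04), were not called.

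Higher genes of complex V belonged to the stalk and the membrane part. They were Atp5mpl (0.27), Atp5h (0.23), Atp5k (0.21), Atp5o (0.21) and Atp5j2 (0.20), of which Atp5h is a peripheral stalk subunit and Atp5o the protein that joins the stalk to the catalytic head. For Atp5h, EBs read 12.61, 12.73, 12.65, 12.72 and 12.73, against 12.50, 12.48, 12.53 and 12.31 in ESCs (adjusted p = 0.0087). Atp5mpl lost its call without EB3, ES2, ES6 or ES8 (highest adjusted p = 0.071). The complex was split after the values were seen, and so without a test. The 5 genes of the F1 head had 0 higher and 2 lower (40%), with a median of −0.09. The 3 c-subunit genes had 0 higher and 1 lower (33.3%). The 9 others had 5 higher (55.6%) and 0 lower, with a median of 0.20. The shares over all genes at log2 10 or more were 26.2% higher and 40.9% lower. With quantile normalization, 2 genes of the head and c ring were called higher. Of the 9 others, 3 were called higher without EB3 or ES6, and 2 in arrays 1 to 6 or in arrays 7 to 10. Over all genes 12.6% were higher in arrays 1 to 6 and 13.1% in arrays 7 to 10. Of the 9 others, 0 were called lower with any alternative tried. In the head, a second probe set of Atp5d, the delta subunit, was called higher (0.16, adjusted p = 0.042).

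**Figure D2:**
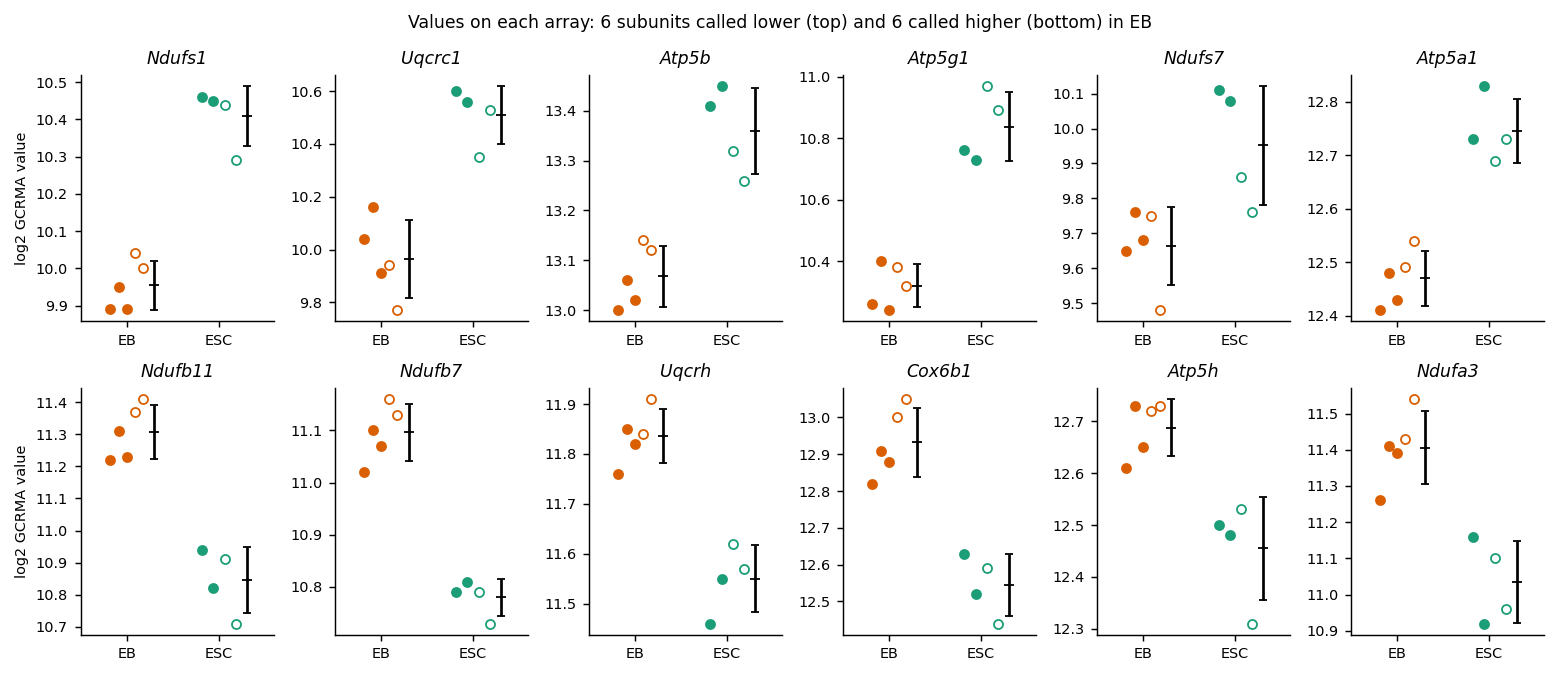
Log2 GCRMA value on each array for 6 genes called lower (top) and 6 called higher (bottom) in EBs, EB arrays left and ESC arrays right in each panel. Filled circles are arrays 1 to 6, open circles arrays 7 to 10, and black bars the group mean ± SD (n = 5 EB, 4 ESC). The groups stand apart in 11 of the 12 panels, and meet for Ndufs7 at 9.76.

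Of the 10 general subunits of complex IV, cytochrome c oxidase, Cox6b1 alone was called by its representative probe set, with a median of −0.06 for the 10. That is 10% higher and 0% lower, against 15.7% and 14.7% of all genes and 26.2% and 40.9% of those at log2 10 or more. Cox7c, at a mean of 6.32, lies under that level. The nearest to a call were Cox6a1 (0.17, adjusted p = 0.051), Cox6c (−0.16, adjusted p = 0.052) and Cox5a (−0.13, adjusted p = 0.07). Other probe sets were called, without overlap, for Cox6a1 (0.21, adjusted p = 0.017) and Cox5a (−0.22, adjusted p = 0.017). Over all 18 genes of the complex, tissue isoforms included, 1 was called lower, against 6 with array weights and 5 without EB9. Shares of all genes in those fits are not given. Cox4i1, a regulatory subunit of the complex in most tissues, read 12.48 to 12.59 in EBs and 12.51 to 12.68 in ESCs, and its difference of −0.05 was within the spread between arrays. Ndufa4, once counted with complex I and now placed in complex IV, had 0.19 (adjusted p = 0.077). Cox7c was read weakly by its probe set (5.77 to 6.81 in EBs, 6.18 to 6.74 in ESCs).

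Tissue isoforms of complex IV were given apart, because EBs expressed heart muscle genes. Myl7, an atrial myosin light chain, averaged 11.46 in EBs and 2.42 in ESCs, Tnnt2, cardiac troponin T, 11.44 in EBs and 3.62 in ESCs, and Myh6, a cardiac myosin heavy chain, 10.85 in EBs and 6.27 in ESCs. None of the muscle isoforms of complex IV was called higher. Cox6a2, the heart and skeletal muscle form of subunit 6a, read 4.70, 4.59, 4.67, 4.56 and 4.55 in EBs, against 4.55, 4.60, 4.55 and 4.61 in ESCs (0.04, adjusted p = 0.47), and Cox8b was near the floor throughout (2.79 to 2.89). Cox7a1, the muscle form of subunit 7a, was lower in EBs. It read 5.21, 5.31, 5.32, 4.96 and 5.25 in EBs, against 5.64, 5.74, 5.56 and 5.78 in ESCs (−0.47 ± 0.08, adjusted p = 0.0026). Ckm and Ckmt2, the muscle creatine kinases, were also near the floor in both groups (3.36 and 2.96 in EBs, 3.32 and 3.03 in ESCs).

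Among the other isoforms, Cox4i2, known from lung, read 4.78 to 4.83 in EBs and 4.83 to 4.85 in ESCs, and Ndufa4l2, a gene known to respond to hypoxia, 2.16 to 2.20 in EBs and 2.20 to 2.22 in ESCs. Cox7b2 read 2.51 to 2.62 in EBs and 2.62 to 2.73 in ESCs. Cox6b2, known from testis, was the tissue isoform with the strongest reading and was spread widely within ESCs. It read 9.22, 9.37, 9.31, 9.45 and 9.40 in EBs, against 9.25, 9.35, 8.98 and 8.69 in ESCs. ES2 and ES6 lay among the EB arrays and ES8 and ES10 below them, and the difference of 0.28 was not called (adjusted p = 0.1). Marker counts are to be read beside the 15.7% of all genes called higher and 14.7% called lower. Of 7 germ cell and testis markers 4 were lower in EBs and 0 higher, and 3 were near the floor. Their summed intensity was 149 to 233 in EBs against 1070 to 2200 in ESCs. Of the primitive red cell markers 3 of 7 were higher (3050 to 11900 in EBs against 120 to 143 in ESCs), with a median difference of 0.25. Of the mesenchymal markers 6 of 8 were higher (24300 to 27500 against 1840 to 7270), with a median of 2.42. Visceral endoderm and liver markers had 2 of 7 higher (195 to 341 against 126 to 174). Their median was −0.02, and 3 of the 7 were near the floor. The part of these cell types in the subunit differences was not tested.

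The tissue isoform was also set against the general one within each array, as a difference of log2 values, for 7 pairs. Levels of different probe sets cannot be compared, but a change of this difference between groups can. For Cox7a1 and Cox7a2 it averaged −7.53 ± 0.17 in EBs and −7.13 ± 0.14 in ESCs (SD, n = 5 and 4), with an exact two-sided permutation p of 0.0159, where the lowest that 126 regroupings allow is 0.0079. After Benjamini-Hochberg adjustment over the 7 pairs the permutation p was 0.0833, so no pair passed. With arrays 1 to 6 only the shift was −0.28 (exact p = 0.1), and with arrays 7 to 10 only −0.57 (exact p = 0.33), and neither of these designs could reach 0.05. For Cox6b2 and Cox6b1 it averaged −3.58 ± 0.04 in EBs and −3.48 ± 0.25 in ESCs (exact permutation p = 0.389). The other 5 pairs had exact permutation p values of 0.0238 (Ndufa4l2 and Ndufa4) to 0.738 (Cox4i2 and Cox4i1), with a tissue isoform averaging log2 4.86 or less.

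**Figure D3:**
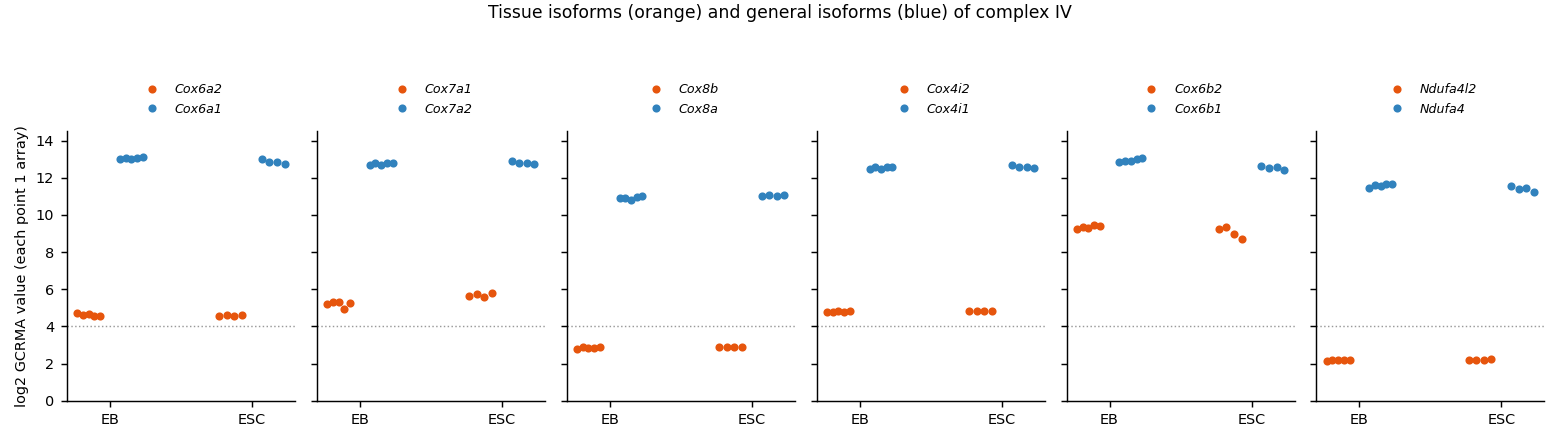
Log2 GCRMA value of the tissue isoform (orange) and the general isoform (blue) for 6 pairs, 1 point per array, EBs left and ESCs right. The dotted line at log2 4 marks the floor used here, and among tissue isoforms Cox6b2 alone reads above log2 6.

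The readings of these genes also moved with the array numbers. ES2 and ES6 both read above ES8 and ES10 for 43 of the 81 genes (53.1%) and below for 5 (6.17%), against 21.7% and 13.6% of all genes. EB7 and EB9 read above EB1, EB3 and EB5 for 34 (42%) and below for 4 (4.94%), against 17.2% and 9.81%. Among genes of mean log2 10 or more the shares were nearer, with 59.7% above and 8.06% below for the ESC arrays of the 62 oxidative phosphorylation genes against 42.4% and 20.7% of all 1413, and 50% and 3.23% for their EB arrays against 34.3% and 15.1%. The shift thus ran upward with the numbers in EBs and downward in ESCs. Taken as the median deviation of 70 general subunits from their own means, the position was −0.04, 0.03, −0.01, 0.08 and 0.05 in EBs, against 0.06, −0.01, −0.04 and −0.11 in ESCs. For all genes at log2 10 or more it was −0.07, −0.01, −0.07, 0 and −0.03 in EBs, against 0.07, 0.07, 0.04 and −0.01 in ESCs. Its part in the differences was not tested.

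**Figure D4:**
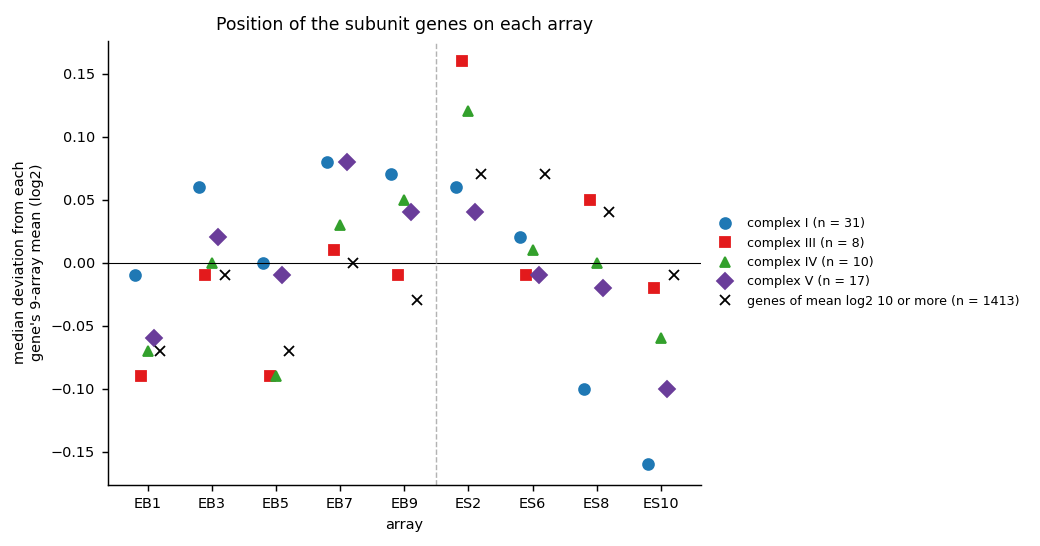
Median deviation of complexes I, III, IV and V from their genes' means over the 9 arrays, on the log2 scale, per array. EBs stand left of the dashed line and ESCs right. Tissue isoforms and genes near the floor are left out of the complexes. Crosses are all genes of mean log2 10 or more. Complex I runs between −0.01 and 0.08 in EBs and between −0.16 and 0.06 in ESCs, with ES8 and ES10 lowest.

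With arrays 1 to 6 only (3 EB, 2 ESC), 6 of the 81 genes were called higher and 15 lower, where 12.6% and 14.3% of all genes were. With arrays 7 to 10 only (2 EB, 2 ESC), 15 were higher and 2 lower, against 13.1% and 10.1% of all genes. The median difference was −0.04 in arrays 1 to 6 and 0.14 in arrays 7 to 10, so the balance between rises and falls depended on which arrays were read. With array number as a block in a fit of all arrays, 20 were called higher and 11 lower, with no share of all genes given. Such a block fits the same shift in both groups, so it cannot take up one that runs in opposite directions in EBs and ESCs. Of the genes called in arrays 1 to 6, all 6 higher and 11 of 15 lower had the same direction in arrays 7 to 10 (98.5% and 95.7% for all genes so called). In turn, 14 of 15 higher and 2 of 2 lower in arrays 7 to 10 kept their direction in arrays 1 to 6 (96.8% and 99% for all genes). The 5 genes called higher in both sets were Ndufb11, Ndufb7, Uqcrh, Cox6b1 and Atp5j2, and the 2 called lower in both were Uqcrc1 and Atp5g1. Ndufs1 gave −0.54 in arrays 1 to 6 (adjusted p = 0.0012) and −0.34 in arrays 7 to 10 (adjusted p = 0.051), and Atp5b −0.41 (adjusted p = 0.0012) and −0.16 (adjusted p = 0.068). Across the 81 genes the differences of the array sets had a Pearson r of 0.80, a description over genes that share arrays and are not independent.

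**Figure D5:**
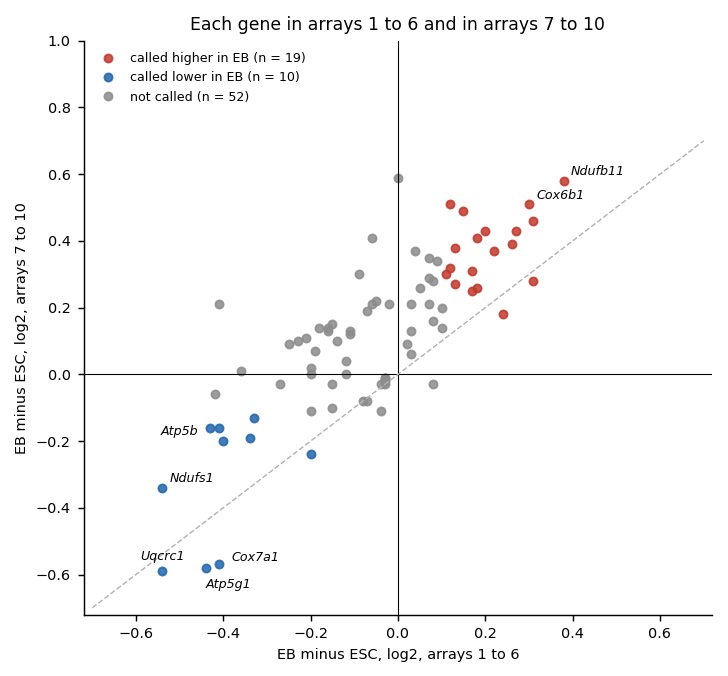
EB minus ESC log2 difference of each of the 81 genes in arrays 1 to 6 (x axis) and in arrays 7 to 10 (y axis), coloured by the call from all 9 arrays, with the line of equal values dashed. Most genes lie above the line, and Uqcrc1, Atp5g1, Ndufb11 and Cox6b1 lie far from 0 on both axes.

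The readings of different probe sets of a gene were also compared. Of 43 genes with more than 1 probe set at log2 4 or above, 33 had all of them differing in 1 direction, and 0 had probe sets called in opposite directions. In 4 genes that were not called, Atp5d, Cox5a, Cox6a1 and Sdha, another probe set was. All 3 probe sets of Ndufb11 and both of Cox6b1 were called higher. A further 9 probe sets were paired with one of these symbols and another gene, and were left out.

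Other genes of mitochondrial energy metabolism are given by list, to be read beside the 15.7% of all genes called higher and 14.7% called lower. No list was tested against the subunits. Of 39 assembly factors, which insert cofactors and subunits, 9 were higher (23.1%) and 10 lower (25.6%) in EBs, with a median of −0.11. Ecsit, an assembly factor of complex I that also acts in innate immune signalling, fell by 1.64 (adjusted p = 6.9e-07), with EBs at 6.94 to 7.19 and ESCs at 8.63 to 8.85. Ndufaf6 (−1.06), Cox19 (0.90) and Sdhaf1 (0.89) followed. Of 10 subunits and electron carriers outside the symbol rule 2 were higher (20%) and 4 lower (40%), with a median of −0.10. Gpd2, the glycerol-3-phosphate dehydrogenase of the inner membrane, differed by −1.59 (adjusted p = 0.00022) and Dhodh, of pyrimidine synthesis, by −1.44 (adjusted p = 0.00013). Etfdh, which passes electrons from fatty acid oxidation to ubiquinone, rose by 0.99 (adjusted p = 7e-05), and Cyct, testis cytochrome c, fell by 0.66.

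Mitochondrial ribosomal proteins, which translate the subunits encoded in mitochondrial DNA, had 44 of 76 genes lower (57.9%) and 4 higher (5.26%), with a median of −0.38. Of all genes 14.7% were lower, and 40.9% of those at log2 10 or more. The differences were −1.37 for Mrps18b, −1.02 for Mrpl45, −1 for Mrpl15 and −0.99 for Mrps25, each with EBs below ESCs on every array. Of 20 regulators of mitochondrial biogenesis 10 were lower (50%) and 2 higher (10%), with a median of −0.30. Nrip1, a corepressor of nuclear receptors, rose by 2.1 (adjusted p = 2.8e-05). Nrf1, a transcription factor of nuclear genes for mitochondrial proteins, read 7.54, 7.47, 7.07, 6.67 and 6.78 in EBs, against 8.30, 8.32, 8.09 and 8.28 in ESCs (−1.14, adjusted p = 0.0016). Pprc1, a coactivator related to PGC-1, differed by −1.07 and Polg2, an accessory subunit of the mitochondrial DNA polymerase, by −0.93, both called lower.

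In the pyruvate dehydrogenase and citric acid cycle list 2 of 23 genes were higher (8.7%) and 7 lower (30.4%), with a median of −0.07. Idh2, the NADP-dependent isocitrate dehydrogenase, rose by 1.55. Pdk1, a kinase that inhibits pyruvate dehydrogenase, was lower (−1.52), as were Idh3a, a subunit of the NAD-dependent isocitrate dehydrogenase (−1.08), and Pdhb of the pyruvate dehydrogenase complex (−0.97). Of 15 carriers, porins and uncoupling proteins 3 were higher (20%) and 6 lower (40%), with a median of −0.09. The aspartate/glutamate carriers Slc25a12 (−1.30) and Slc25a13 (−0.67) and the ADP/ATP carrier Slc25a5 (−0.66) were lower, and Vdac3, a porin of the outer membrane, rose by 0.41. Fatty acid oxidation had 8 of 14 genes higher (57.1%) and 2 lower (14.3%), against 15.7% and 14.7% of all genes, with a median of 0.33. Acaa2, the thiolase of the pathway, rose by 1.28, Acadvl by 0.69 and Cpt2 by 0.63 (adjusted p = 0.046), while Acadm, the medium-chain dehydrogenase, fell by 0.94. Cpt2 read 7.56 and 7.61 in ES2 and ES6 but 6.86 and 6.72 in ES8 and ES10, against 7.68 to 7.94 in EBs.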

How the data were processed

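Total RNA of 5 EB and 4 ESC samples, grouped by their titles, had been hybridized to Affymetrix mouse arrays. The authors deposited GCRMA values, a linear intensity per probe set, corrected for background by probe sequence, normalized across arrays and summarized over probes. Whether all 9 arrays were normalized together, and other upstream settings, are not given in the sources used here. Arrays have no read depth.

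The log2 of each deposited intensity was taken without further normalization, and the 64 controls were dropped. Among the 45037 probe sets tested, the array annotation gave 34945 a single symbol, 932 several and 9160 none. Columns of per-sample values left unused numbered 0. A gene was represented by the probe set of highest mean among those paired with it alone. EBs and ESCs were compared by limma 3.58.1 in R 4.3.3 (two-sided, eBayes with its trend and robust options). P-values were adjusted by Benjamini-Hochberg across every probe set tested, with calls at an adjusted p under 0.05. Isoform pairs were compared by an exact permutation test. The code was tested on simulated data.

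Members, lists, markers and tests were chosen with earlier results of these data known. Named genes were the isoform pairs, the 12 largest rises and 12 largest falls among called members, the extremes of each complex, and up to 4 called genes of each further list with the largest difference; others were named after their values were seen. Alternatives were quantile normalization, median centring, eBayes without trend and robust, array weights, plain _at probe sets, the mean over probe sets, a mean log2 of 4 or more, a fold of at least 2, array number as a block, arrays 1 to 6 or 7 to 10 alone, and each array left out.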

Additional observations from a re-analysis of the deposited data

Results flagged for a closer look

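Within each group, arrays were searched for one that stood apart from the others of the group, over 126 combinations of gene and group. Chance alone marks about 1 in 20 such groups, and 3 were found. Ndufs1 read 10.29 on ES10, against 10.44 to 10.46 on the other ESC arrays. Cox8c, a testis form of subunit 8, read 5.64 on EB9, against 4.62 to 4.79 on the other EB arrays. Cox7b2 read 2.73 on ES10, against 2.62 to 2.63 on the other ESC arrays, all near the floor. With each array left out in turn, the difference of Ndufs1 stayed between −0.50 and −0.44 and its call was kept.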

How the results depend on the processing

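The 19 genes called higher became 33 with quantile normalization, 12 with plain _at probe sets (65 of the 81 genes have one), 6 with arrays 1 to 6 and 12 to 23 with each array left out. The 10 called lower became 18 with array weights, 6 with plain probe sets, 2 with arrays 7 to 10 and 9 to 14 with each array left out. Of all genes, 12.6% were called higher in arrays 1 to 6 and 10.1% lower in arrays 7 to 10. Shares of all genes with the other settings are not given, so those counts cannot be read as particular to the subunits. At a fold of at least 2, 0 genes were called in either direction, since no difference reached that size. Quantile normalization put the median of complex I at 0.14, of II at 0.18, of III at −0.01 and of V at 0.12, while the median of all genes became −0.01. Plain probe sets gave −0.07 for complex II and 0.01 for III, and the mean over probe sets −0.03 for III. With arrays 1 to 6 only, the medians were −0.04 for all members, −0.03 for complex I, 0.04 for II and −0.20 for III, and with arrays 7 to 10 only, 0.14, 0.21 for I, 0.04 for III and 0.14 for V. The pair Cox7a1 and Cox7a2 gave −0.28 and −0.57 in these array sets, and Cox6b2 and Cox6b1 turned to 0.08 in arrays 7 to 10. No value was computed for the pairs with array number as a block. The causes of these shifts were not tested.

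Among the 63 genes named by rule, those that changed sign were Cox8b, Ndufa4l2, Cox7a2 and Cox4i1 with quantile normalization (0.01 each), and, with plain probe sets, Cox8c (−0.02), Ndufa12 (−0.10), Ndufb8 (−0.06) and Idh2 (−0.11), where the plain probe sets of Ndufa12 and Ndufb8 averaged only log2 5.76 and 2.52. Atp5g1 (−0.06) and Uqcrq (−0.03) lost their calls there, with plain probe sets averaging 3.13 and 4.36. Among the same 63 genes, the sign changed in arrays 1 to 6 for Cox6b2 (0) and Cox8c (−0.06). It changed in arrays 7 to 10 for Cox6a2 (−0.03), Cox7a2 (0) and Cox4i1 (0.04), and without EB9 for Cox8c (−0.05). Over all 81 members, 6 had the opposite sign in arrays 1 to 6 and 15 in arrays 7 to 10, and 0 of these had been called. These counts used rounded differences, so a value printed as 0 was not counted. Of the 22 called members named by rule, 17 kept their call without each array in turn. Atp5mpl, Ndufa12, Ndufb8, Ndufs7 and Sdhb did not. The called members outside the rule had smaller rises and were not followed gene by gene. They were Ndufv3, Ndufc1, Ndufb5, Atp5h, Atp5k, Atp5o and Atp5j2. By the counts given above, Ndufv3, Ndufc1 and Ndufb5 lost their calls without EB3. Probe sets near the floor, 5 of the 81, limit what can be said of their genes.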
